A study of Mus musculus with 24 samples.

Results

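The 8 genes described here encode subunits of 3 families of transmitter-gated ion channels: *Grin1*, *Grin2b* and *Grin3a* of the NMDA receptors, *Grik2*, *Grik3* and *Grik5* of the kainate receptors, and *Gabra2* and *Gabrb2* of the GABA-A receptors. They were taken from the expression table by name, and all 8 were found among its 54658 genes. RNA was sequenced from the 3′ end of transcripts in 24 libraries from 12 mouse embryos, 6 *Cep135* (+/+) (controls) and 6 *Cep135* (-/-) (mutants), all from matings of *Cep135* (+/-) animals on a C57BL/6J background with an allele made by CRISPR. *Cep135* encodes a centriole protein, and the study asked how its loss changes the developing cortex and the progenitors grown from it. Cortices were taken at E11.5 (controls D, E and F, mutants A, B and C) and at E14.5 (controls 3, 4 and 5, mutants 1, 2 and 6). The cells of the 6 E14.5 embryos were also grown as neurospheres, floating cultures of neural progenitors in EGF and FGF2 with N2 and B27, and sampled at 12 h and 24 h. There were thus 3 libraries in each of 8 groups. The labels name no other allele or agent in any group. The labels name no litter, and litters were read from the prefixes of the sample titles. By these, the E11.5 embryos came from 2 litters (A and D from one, B, C, E and F from the other). The E14.5 embryos came from a litter of their own, so that age and litter cannot be told apart. For mutants B and C the column headers carry another prefix than the titles. That they shared a litter with controls E and F is therefore not certain. By their transcripts the 3 E14.5 controls were male and 2 of the 3 E14.5 mutants female, so that sex and genotype are largely confounded in the E14.5 cortices and in both cultures.

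NMDA and kainate receptors are opened by glutamate and GABA-A receptors by GABA, the main excitatory and inhibitory transmitters of the mature cortex. NMDA receptors need a GluN1 subunit (*Grin1*) together with GluN2 or GluN3 subunits, let calcium in, and in the embryonic forebrain are built largely with GluN2B (*Grin2b*). Kainate receptors combine subunits that bind glutamate with low affinity (*Grik2*, *Grik3*) with high-affinity subunits such as that of *Grik5*, which needs a partner to form a working channel. GABA-A receptors usually join alpha, beta and gamma subunits around a chloride pore. In immature neurons GABA often depolarises the cell, and both transmitters are known to act on progenitors and migrating neurons before synapses form.

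The genes lie on 7 chromosomes of the mouse genome (GRCm38). *Grin1* spans chr2:25291181-25319187, *Grin2b* chr6:135713233-136173511 and *Grin3a* chr4:49661611-49845744, all on the minus strand. *Grik2* lies at chr10:49094833-49788766 and *Grik5* at chr7:25009849-25072346, both on the minus strand, and *Grik3* at chr4:125490700-125714173 on the plus strand. *Gabrb2* is at chr11:42419757-42629028 on the plus strand. *Gabra2*, at chr5:70957597-71095849 on the minus strand, is 5.49 Mb from *Cep135* (chr5:76588698-76646466) and so is inherited mostly together with it, and the part of linked variants in its values was not tested. Reads came from transcript ends, and the last 2000 bases of each of the 8 genes overlap 0 other annotated genes on the same strand.

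Promoter sequences (RefSeq, GRCm38.p6, 250 bases before to 50 after the transcript start) were found for 6 of the 8 genes, not for *Grin2b* and *Grin3a*. They were searched on both strands for the E-box CANNTG, the motif read by the proneural bHLH factors of the cortex, because 6 of the 8 genes rose together between E11.5 and E14.5 (below). Of the 3 promoters shown, those of *Grin1* and *Gabra2* belong to genes that rose and that of *Grik5* to the gene that did not pass the test. Capitals mark E-box matches.
Grin1, chr2:25319138-25319437, minus strand: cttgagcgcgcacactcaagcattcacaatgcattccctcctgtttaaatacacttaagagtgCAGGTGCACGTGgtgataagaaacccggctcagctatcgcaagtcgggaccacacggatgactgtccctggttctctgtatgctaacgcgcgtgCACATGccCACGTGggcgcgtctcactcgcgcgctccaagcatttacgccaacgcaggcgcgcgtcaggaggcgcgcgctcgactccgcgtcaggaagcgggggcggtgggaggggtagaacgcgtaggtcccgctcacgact
Gabra2, chr5:71095800-71096099, minus strand: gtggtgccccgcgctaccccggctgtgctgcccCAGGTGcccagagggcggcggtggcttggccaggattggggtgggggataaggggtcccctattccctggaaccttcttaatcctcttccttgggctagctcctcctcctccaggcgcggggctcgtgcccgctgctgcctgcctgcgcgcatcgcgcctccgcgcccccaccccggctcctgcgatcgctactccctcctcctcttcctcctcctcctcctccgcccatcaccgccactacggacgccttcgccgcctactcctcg
Grik5, chr7:25072320-25072619, minus strand: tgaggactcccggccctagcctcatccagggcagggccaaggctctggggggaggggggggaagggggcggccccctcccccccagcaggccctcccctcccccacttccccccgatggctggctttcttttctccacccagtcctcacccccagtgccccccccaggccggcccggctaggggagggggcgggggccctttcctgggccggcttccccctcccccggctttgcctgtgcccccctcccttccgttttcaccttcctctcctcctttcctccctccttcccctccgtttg
The *Grin1* promoter holds 4 matches, those of *Gabra2*, *Grik2* and *Grik3* 1 each and that of *Grik5* 0. Of 3 starts of *Gabrb2*, the first has 1 match and the others 0. An E-box was thus present in 5 of the 8 promoters of these 6 genes, and in 72.3% of the 32851 mouse promoters of this length. The form CAGGTG, present in 20.2% of all promoters, was found in those of *Grin1*, *Grik3*, *Gabra2* and *Gabrb2* (for *Gabrb2* on the other strand). A match is a description of the letters, not of a bound site.

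Values below are normalised read counts, that is, the reads of a gene divided by a size factor for each library; they are compared between libraries and not between genes. Libraries held 4732781 to 11645213 reads on genes. *Cep135* itself did not pass the test in any comparison of genotypes (limma adjusted p 0.850 to 0.992), and reads from the 3′ end do not check the allele. For the cortex of mutant 6 the labels name E14.5 in some fields and E11.5 in another; its summed neuron markers (36893) lay near those of the other E14.5 mutants (39526 and 40630) and above those of every E11.5 library (11683 to 16920), and it was taken as E14.5. Neuron markers were present in all 24 libraries, and the cortex libraries also held markers of microglia, endothelium and meninges. Each library of a group came from a different embryo, and the p-values measure the spread between embryos of few litters.

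**Figure D1:**
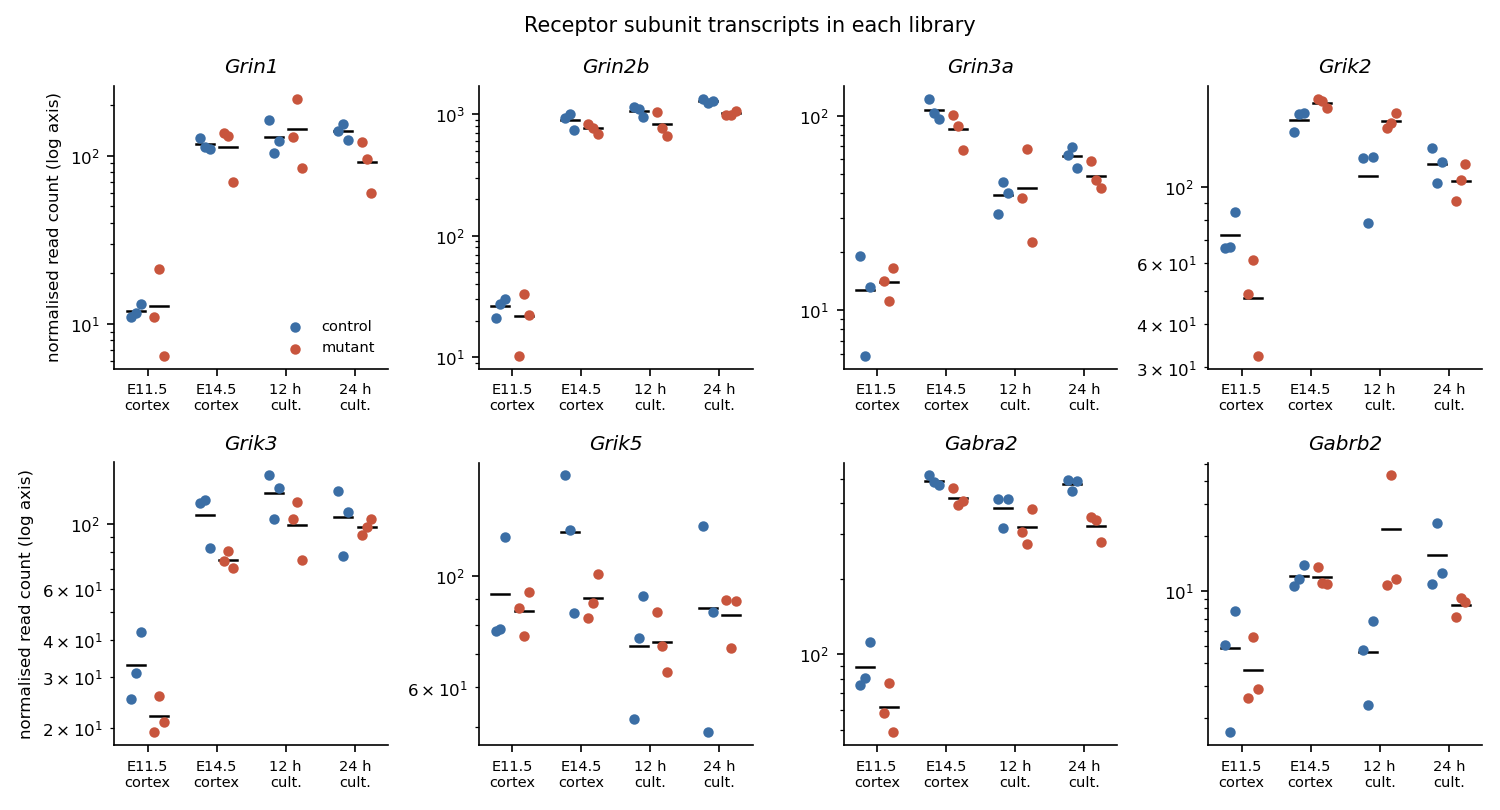
Normalised read count (log axis) of each of the 8 genes in each of the 24 libraries, by age or culture time, with controls and mutants in separate colours and bars at the group means. Grin2b, Grin1, Grin3a, Gabra2, Grik3 and Grik2 are higher in the 6 E14.5 cortices than in any of the 6 E11.5 cortices.

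Between E11.5 and E14.5 the receptor genes rose. Of the 7 members that passed the minimum mean of 10, 6 were higher at E14.5 at an adjusted p under 0.05 (limma, 6 libraries against 6, both genotypes), where 53.1% of all 13650 genes tested were called, 23.8% as higher. The same 6 had no overlap between the ages, as did 15.5% of all genes in this direction. *Grik5* did not pass the test. The median change of the 7 was 2.62 on the log2 scale, against -0.08 over all genes tested.

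*Grin2b*, the GluN2 subunit of the embryonic forebrain, changed most. In the E11.5 controls it was 21.2, 27.6 and 30.3 and in the mutants 10.3, 33.5 and 22.4. In the E14.5 controls it was 935, 992 and 738 and in the mutants 829, 774 and 680. Every E14.5 library lay far above every E11.5 library, and the mean went from 24.2 ± 8.25 to 825 ± 119 (SD, n = 6 each). The log2 change was 5.11 (SE 0.20), 34.4-fold, with an adjusted p of 2.035e-11 (limma).

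*Grin1*, the subunit that every NMDA receptor contains, was 11.1, 11.7 and 13.2 in the E11.5 controls and 10.97, 21.2 and 6.49 in the mutants. At E14.5 it was 128, 113 and 110 in controls and 137, 131 and 69.7 in mutants. The lowest E14.5 value belonged to mutant 6, and it still lay above every E11.5 value. The change was 3.15 on the log2 scale (SE 0.24), 8.87-fold, with a limma adjusted p of 2.493e-08. *Grin3a*, whose GluN3A subunit lowers calcium entry through NMDA receptors, went from 13.4 ± 4.60 to 96.3 ± 18.4 (SD, n = 6 each). Its log2 change was 2.81 (SE 0.24; limma adjusted p = 9.674e-08).

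Among the kainate subunits, *Grik3* rose by 1.71 on the log2 scale (SE 0.16), from 27.5 ± 8.52 to 91.1 ± 22.1 (SD, n = 6 each). *Grik2* rose by 1.50 (SE 0.17), from 60.2 ± 17.8 to 166 ± 12.9. The limma adjusted p-values were 2.717e-07 and 2.372e-06. *Grik5*, the high-affinity subunit, was 77.6, 78.6 and 119.7 in the E11.5 controls and 86.4, 75.8 and 93.0 in the mutants, and 159, 123 and 84.6 against 82.4, 88.3 and 101 at E14.5. These ranges overlapped, and the log2 difference of 0.24 (SE 0.16, 95% interval -0.10 to 0.58) did not pass the test (limma adjusted p = 0.228). The interval leaves out a change as large as that of any of the 6 genes that rose.

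For the GABA-A genes, *Gabra2*, an alpha subunit common in the embryonic brain, was 75.6, 80.3 and 112 in the E11.5 controls and 58.7, 77.0 and 49.0 in the mutants. At E14.5 it was 515, 483 and 473 in controls and 458, 394 and 408 in mutants. It rose 6.14-fold (log2 2.62, SE 0.13; limma adjusted p = 2.298e-10). *Gabrb2*, a beta subunit typical of the mature brain, stayed low, at 1.67 to 7.77 at E11.5 and 10.6 to 13.9 at E14.5. It fell under the minimum mean and was not tested in the fit; its ranges did not overlap (exact permutation p within genotypes = 0.005, two-sided, the smallest this design gives), and with no minimum the limma log2 difference was 1.41 (SE 0.39, adjusted p = 0.011).

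**Figure D2:**
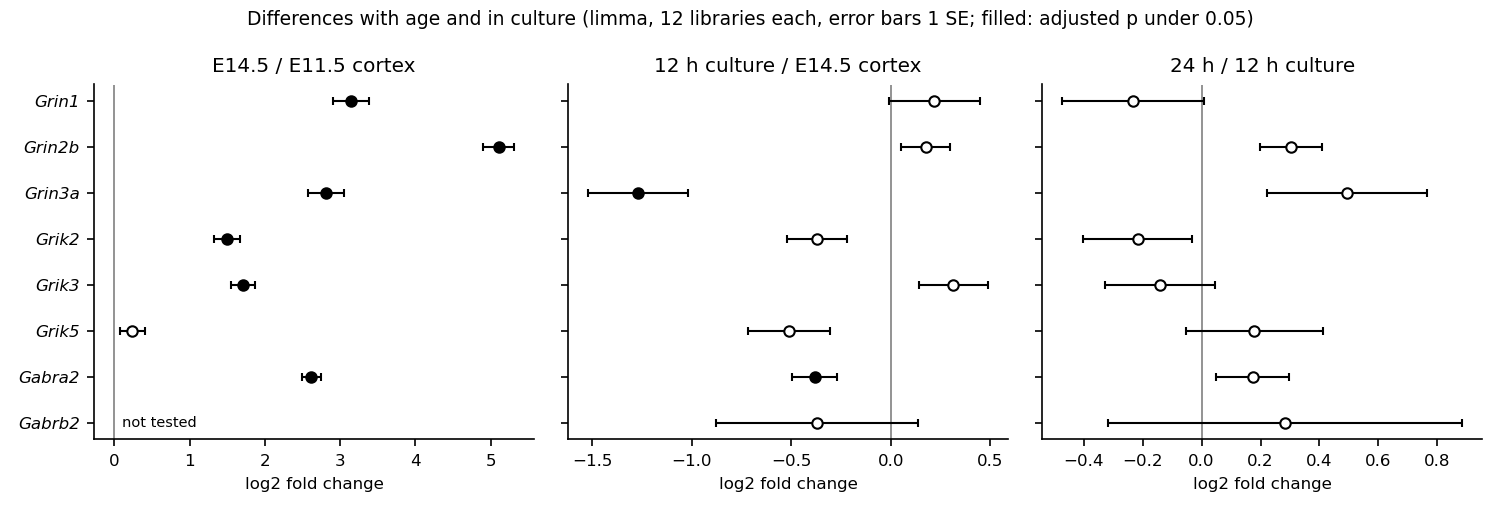
Log2 differences of the 8 genes between E14.5 and E11.5 cortex, between 12 h neurospheres and E14.5 cortex, and between 24 h and 12 h neurospheres. Error bars show the SE, and filled points mark an adjusted p under 0.05. Gabrb2 was not tested with age. The differences with age reach 5.11 for Grin2b, while those with culture lie between -1.27 and 0.49.

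The rise with age was present in each genotype. Fitted in controls alone, the log2 changes were 5.03 for *Grin2b*, 3.18 for *Grin1*, 3.11 for *Grin3a*, 2.47 for *Gabra2*, 1.68 for *Grik3* and 1.10 for *Grik2*. In mutants alone they were 5.18, 3.11, 2.52, 2.77, 1.74 and 1.90 in the same order, and all 12 values passed the test. These fits called 5053 of 13605 genes in controls and 5362 of 13647 in mutants, in either direction. *Grik5* passed in neither fit, at 0.39 in controls and 0.09 in mutants.

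Markers of neurons moved with age too. Of 14 neuron markers 13 were called higher at E14.5, and their summed level was 11683 to 16920 at E11.5 and 36893 to 48897 at E14.5. Of 11 markers of apical progenitors, the dividing cells at the ventricle, 9 were called lower and 2 higher, with sums of 17267 to 22120 against 11611 to 14157. In bulk tissue, fewer cells of a type and less RNA per cell cannot be told apart. Set against the neuron marker sum of each library (a scaling chosen after seeing the data, which moved the median of all genes to -1.75), *Grin2b*, *Grin1*, *Grin3a* and *Gabra2* were still called higher, by 3.45, 1.53, 1.19 and 0.94 on the log2 scale. On this scale 12867 of 13650 genes were called, 436 as higher and 12431 as lower. *Grik3* (0.06, limma adjusted p = 0.742) and *Grik2* (-0.17, adjusted p = 0.364) did not pass. *Grik5* was called lower, as were most genes, at -1.43 (limma adjusted p = 1.294e-07), which lay above the median of all genes.

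**Figure D3:**
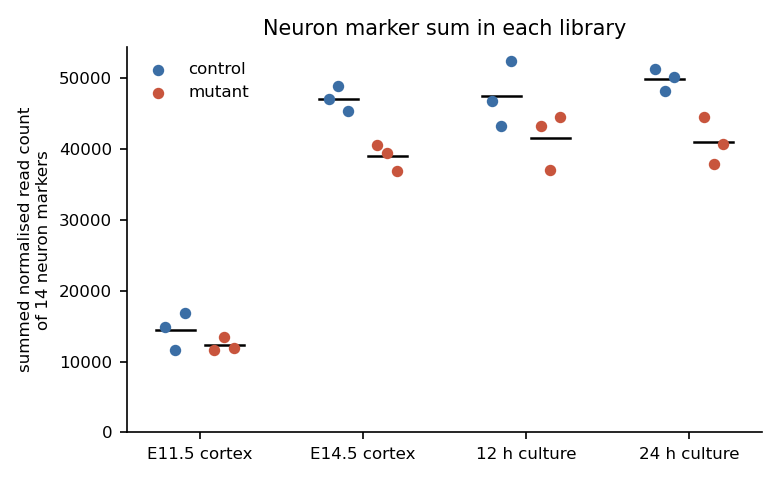
Summed normalised read count of 14 neuron markers in each library, by age or culture time, with bars at the group means. The E11.5 sums lie between 11683 and 16920, and at E14.5 and at 24 h every mutant lies below every control.

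The other genes of these systems, taken from lists of subunits, transmitter supply, scaffolds and chloride transporters, largely rose with age as well: 66 of the 77 tested were called higher and 5 lower, of 92 listed. Beside the members, the 1 further NMDA subunit that passed the minimum (*Grin2d*) was higher, as were all 4 further kainate subunits and Neto auxiliary proteins, and 8 of 9 further GABA-A subunits, with *Gabre* lower. All 7 metabotropic glutamate receptors tested, both GABA-B subunits, and all 7 genes each of GABA and of glutamate synthesis and transport were also higher. Among those with the smallest p-values were *Grm5*, the metabotropic receptor mGluR5 (log2 5.76, SE 0.22), and *Camk2b*, a calcium-dependent kinase of the synapse (4.79, SE 0.23). Of the 5 that were lower, the smallest p-values were those of *Slc12a7*, a potassium-chloride cotransporter (-1.34, SE 0.14), *Dlg1*, a scaffold protein (-0.53, SE 0.09), and *Stk39*, a kinase acting on chloride cotransporters (-0.38, SE 0.09).

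After the E14.5 cells had been in culture for 12 h, *Grin3a* and *Gabra2* were lower than in the cortex. They were the 2 of 8 members called, where 30.2% of 13601 genes were called and 16.1% as lower, so that the number of members called was near the background. The 6 embryos gave both samples, so that the pairs could be compared within each embryo.

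*Grin3a* fell in 6 of 6 embryos. In the E14.5 cortex it was 122, 103 and 96.8 in controls and 100.5, 88.3 and 66.6 in mutants, and after 12 h it was 31.5, 45.8 and 40.2 in controls and 38.0, 67.3 and 22.4 in mutants. Its highest cultured value, in mutant 2, was just above the lowest cortex value, in mutant 6. The log2 difference was -1.27 (SE 0.25), 2.41-fold lower, with a limma adjusted p of 0.00132. *Gabra2* also fell in 6 of 6 embryos, from 455 ± 46.2 to 352 ± 59.9 (SD, n = 6 each), by 0.38 on the log2 scale (SE 0.11; limma adjusted p = 0.0174).

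**Figure D4:**
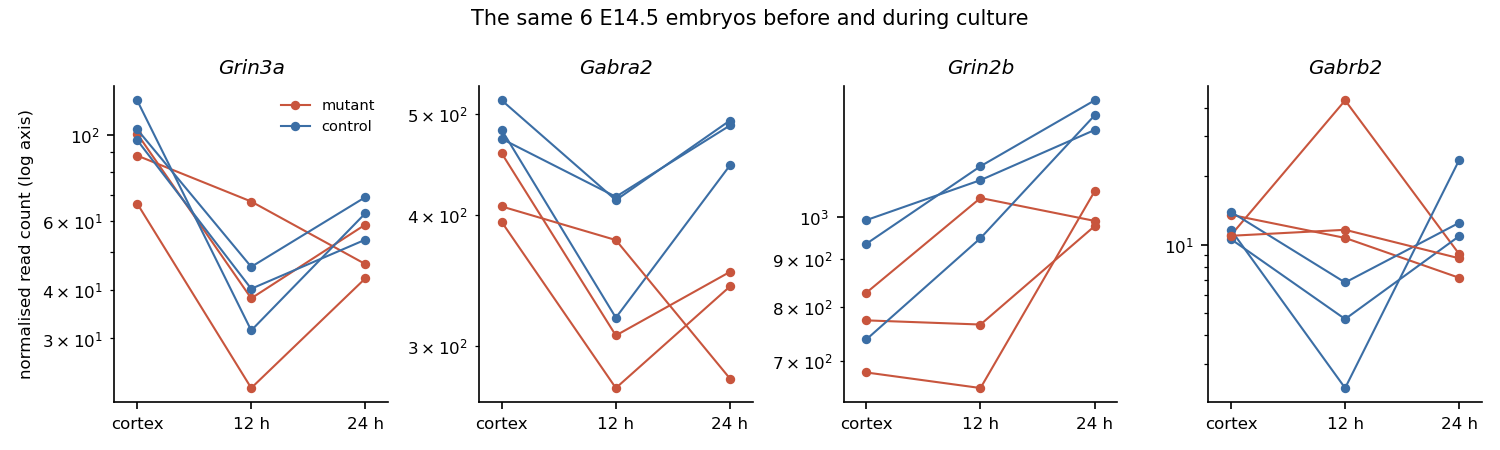
Normalised read count (log axis) of Grin3a, Gabra2, Grin2b and Gabrb2 in the cortex and the 12 h and 24 h neurospheres of the same 6 embryos. Each embryo is joined by a line. Grin3a and Gabra2 fall from cortex to 12 h in all 6 embryos.

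*Grik2* was lower in 6 of 6 embryos too, at -0.37 (SE 0.15), and *Grik5* in 4 of 6, at -0.51 (SE 0.20), but neither passed the test (limma adjusted p 0.0696 and 0.0678). The remaining differences were 0.31 for *Grik3*, 0.22 for *Grin1*, 0.17 for *Grin2b* and -0.37 for *Gabrb2*, with adjusted p of 0.184 to 0.614. Fitted by genotype with 3 embryos each, only *Grin3a* was called in controls, and 0 members in mutants. Of all genes, 2169 of 13566 were called in controls and 1219 of 13617 in mutants. Other cell types changed far more in culture: all 8 tested microglial markers (sums 478 to 1049 in cortex, 7.37 to 53.5 at 12 h), all 10 endothelial markers and all 8 tested meningeal markers were called lower. The neuron marker sum overlapped, at 36893 to 48897 in cortex and 37009 to 52403 at 12 h. Of 9 tested erythroid markers 8 were called higher, with sums of 38257 to 45371 in cortex and 69449 to 153171 at 12 h. *Gm42418*, a transcript overlapping ribosomal RNA sequence, took 9.78 to 15.0% of the reads in cortex and 10.7 to 34.8% at 12 h. What part other cell types and this share had in the fall of *Grin3a* and *Gabra2* was not tested.

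The wider lists did not move one way in culture, with 17 of 79 tested genes called higher and 17 lower. *Grin2c*, a GluN2 subunit known from cerebellum and astrocytes, was near 0 in cortex (means 3.07 in controls and 2.40 in mutants, single libraries 0 to 5.65) and reached means of 141 and 147 at 12 h, a log2 difference of 5.45 (SE 0.48; limma adjusted p = 6.761e-07). The scaffold genes *Dlg4* (PSD-95; 0.90, SE 0.09) and *Homer1* (0.71, SE 0.10) were higher as well. The GABA transporter gene *Slc6a13* (-4.61, SE 0.61), the glial glutamate transporter gene *Slc1a3* (-0.99, SE 0.14) and *Slc12a5*, which encodes the chloride exporter KCC2 of mature neurons (-2.35, SE 0.35), were lower.

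From 12 h to 24 h of culture, 0 of 8 members passed the test, where 0.292% of 13359 genes did; 1 member, *Grin2b*, had an unadjusted p under 0.05, as did 9.64% of genes. *Grin2b* was higher at 24 h in 5 of 6 embryos, by 0.30 on the log2 scale (SE 0.10; limma adjusted p = 0.316), and had its highest levels of the series there, 1148 ± 156 (SD, n = 6). *Grin3a* was also higher in 5 of 6 (0.49, SE 0.27) and *Grik3* lower in 5 of 6 (-0.14, SE 0.19). The other members lay between -0.23 and 0.28.

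Over the 8 groups, *Grin2b* ranked lowest in the E11.5 mutants and highest in the 24 h controls, where it stood apart from the group below it. *Grin3a* was instead highest in the E14.5 control cortex, and both E11.5 groups were its lowest. For *Grin1*, the E11.5 groups overlapped each other and stood apart from the other 6, which each overlapped the next in order. *Grik5* showed no such step.

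Mutants were compared with controls at each age and culture time. No comparison of genotypes called any member at an adjusted p under 0.05 (limma, 3 mutants against 3 controls; the exact permutation test of such groups cannot go below 0.1). The share of all genes called was 0.0149% at E11.5, 0.0736% at E14.5, 0% at 12 h and 0.271% at 24 h. These counts changed with embryo sex in the fit: with it as a term, 4 genes were called in place of 2 at E11.5, 1 in place of 10 at E14.5, 182 in place of 0 at 12 h and 4 in place of 36 at 24 h, again with 0 members. Without adjustment, 2, 1, 0 and 3 members had a p under 0.05, against 7.39, 9.1, 4.85 and 10.6% of all genes. On whole reads, edgeR's quasi-likelihood test and DESeq2 also called 0 members in the 3 comparisons where they were run, at E14.5, 12 h and 24 h. Of the 13583, 13389 and 13300 genes tested there, edgeR called 9, 0 and 40 and DESeq2 64, 9 and 182. Each gave 1, 1 and 3 members with an unadjusted p under 0.05.

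**Figure D5:**
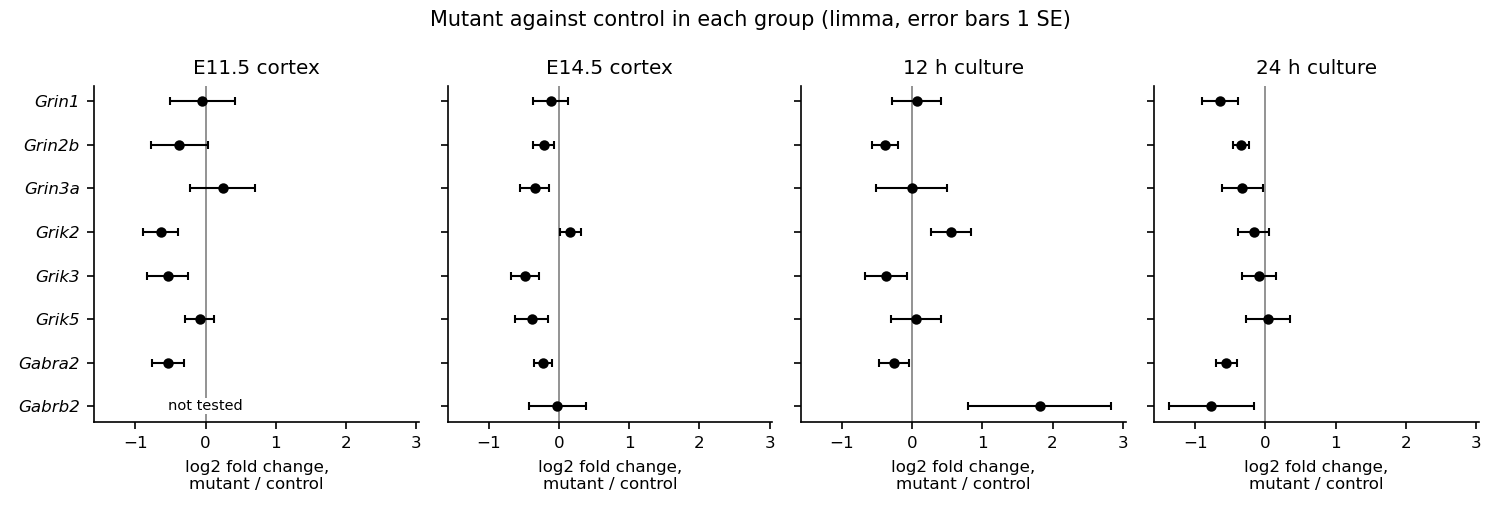
Log2 differences between mutants and controls for each of the 8 genes, at each age and culture time, with error bars that show the SE. Gabrb2 was not tested at E11.5. The 95% interval of Gabra2 at 24 h, which is not drawn, runs from -0.88 to -0.23, and no difference passed the adjusted threshold.

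In the E11.5 cortex 6 of the 7 tested members were below 0, as were 47.1% of all genes, with a median of -0.37. *Grik2* was 66.5, 66.9 and 84.7 in controls and 49.0, 61.3 and 32.4 in mutants, and these values did not overlap (6.11% of all genes were lower in this way). The difference was -0.64 (SE 0.25; limma adjusted p = 0.630, exact permutation p = 0.1). *Gabra2* differed by -0.53 (SE 0.23; adjusted p = 0.667), with mutant B inside the range of the controls. Neuron markers moved the same way, 14 of 14 below 0 with 0 called, as did 14 of 15 markers of ventral telencephalon and interneurons, whose sums were 3719 to 4053 in controls and 2752 to 3360 in mutants. The neuron marker sums overlapped, at 11693.5 to 16920 in controls and 11682.9 to 13410.4 in mutants. Apical progenitor sums were also lower in every mutant, at 19408 to 22120 against 17267 to 19360.5. Sums of microglial, endothelial, liver, and choroid plexus and hem markers were higher in every mutant. Per neuron marker sum, which moved the median of all genes to 0.24, *Grik2* was at -0.42 and *Gabra2* at -0.31; the part of these cells was not tested.

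In the E14.5 cortex 7 of 8 members were below 0, against 48.3% of all genes, with a median of -0.22. *Grik3* was 118, 120.5 and 82.8 in controls and 74.5, 80.6 and 70.5 in mutants, without overlap, at -0.49 (SE 0.20; limma adjusted p = 0.513, exact permutation p = 0.1). *Gabra2* did not overlap either, at -0.22 (SE 0.13; adjusted p = 0.609). *Grik2* went the other way, with 144, 162 and 164 in controls and 180, 177 and 169 in mutants, and did not overlap; its difference of 0.16 (SE 0.15) had an adjusted p of 0.744. Lower without overlap were 6.71% of all genes and higher 7.02%. The neuron marker sum was 45349 to 48897 in controls and 36893 to 40630 in mutants, and the microglial sum 478 to 539 against 868 to 1049; their part in these differences was not tested. Per neuron marker sum, which moved the median of all genes to 0.28, the differences were -0.22 for *Grik3* (limma adjusted p = 0.476), 0.05 for *Gabra2* and 0.43 for *Grik2* (adjusted p = 0.108).

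Over the 12 cortices, with age in the fit, 7 of 7 tested members were below 0 (47.5% of all genes). The test called 0 members and 0.139% of genes, and 2 members had an unadjusted p under 0.05, as did 8.71% of genes. *Grik3* differed by -0.51 (SE 0.16; limma adjusted p = 0.363; exact permutation p within ages = 0.01, two-sided). *Gabra2* differed by -0.38 (SE 0.13; limma adjusted p = 0.409; exact permutation p = 0.01). Each was lower on average in mutants at both ages. All 14 neuron markers and all 15 tested markers of ventral telencephalon and interneurons were below 0 as well, with 0 called. Per neuron marker sum, which moved the median of all genes to 0.25, *Grik3* was at -0.27 and *Gabra2* at -0.13, and 0 members had an unadjusted p under 0.05. With embryo sex as a term 1 member did.

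In the 12 h neurospheres 4 of 8 members were below 0, where 52.2% of all genes were. *Gabrb2* was 4.72, 2.35 and 6.83 in controls and 10.7, 43.1 and 11.6 in mutants. These values rest on 3, 2 and 9 reads in controls and 11, 41 and 13 in mutants, and mutant 2 stood apart. The groups did not overlap, as for 5.09% of genes higher in mutants, and the difference of 1.82 (SE 1.01, 95% interval -0.38 to 4.01) had an adjusted p of 0.914. Choroid plexus and hem markers summed to 2529 to 4725 in controls and 5461 to 16990 in mutants at 12 h, with mutant 2 highest, and their part in this difference was not tested. Of the 9 tested, 0 were called. The liver list, which shares *Ttr*, summed to 1944 to 5353 in controls and 5655 to 15949 in mutants. *Grin1* differed by 0.06, and by -0.60 with embryo sex as a term. *Grik2* was 121, 78.7 and 122 in controls and 148, 153 and 163 in mutants, without overlap, at 0.55 (SE 0.28; limma adjusted p = 0.914).

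At 24 h of culture 7 of 8 members were below 0, against 51.7% of all genes, with a median of -0.34, and 4 did not overlap, where 9.06% of all genes were lower in this way. *Gabra2* was 493, 447 and 488 in controls and 353, 342 and 279 in mutants. Every mutant lay below every control, by 0.55 on the log2 scale (-0.55, SE 0.15, 95% interval -0.88 to -0.23), with a limma adjusted p of 0.153. *Grin2b* was 1333, 1239 and 1284 in controls and 990, 977 and 1064 in mutants (-0.35, SE 0.12; limma adjusted p = 0.284). *Grin1* was 141, 155 and 124 in controls and 120, 95.1 and 60.2 in mutants (-0.65, SE 0.26; adjusted p = 0.380), and its closest mutant, mutant 1, fell just short of control 5. *Gabrb2* was also lower without overlap, at 7.17 to 9.11 against 10.9 to 23.6 (-0.77, SE 0.61).

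The 24 h libraries of the genotypes also differed in other ways. All 14 neuron markers were below 0, with 2 called, and sums of 48201 to 51269 in controls and 37897 to 44527 in mutants, while apical progenitor sums were 11552 to 12172 and 13938 to 15501. Of 9 tested choroid plexus and hem markers 2 were called higher and 1 lower in mutants, with sums of 2054 to 4683 in controls and 5886 to 17834 in mutants. Of 8 tested liver markers 3 were called higher, with sums of 775 to 3536 and 5324 to 16692. The choroid plexus and liver lists share *Ttr*, so that their sums are not independent. In the 24 h controls 10 of the 15 liver genes were at 0 in every library. Of the 13 choroid plexus and hem genes, 2 were at 0 in every 24 h control and 3 in every 24 h mutant. Libraries of controls held 4732781 to 5709443 reads on genes and those of mutants 7903426 to 11645213, and *Gm42418*, a transcript overlapping ribosomal RNA sequence, took 6.26 to 13.9% and 20.5 to 23.0% of the reads. Per neuron marker sum, a scaling that moved the median of all genes to 0.27, the differences were -0.27 for *Gabra2*, -0.37 for *Grin1* and -0.06 for *Grin2b*. With the *Gm42418* share as a term *Gabra2* was at -0.46 (limma adjusted p = 0.939). Depth, *Gm42418* share and genotype cannot be told apart in these 6 libraries.

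Whether the effect of genotype itself changed with age or culture was tested as an interaction, and 0 genes of any kind passed. For *Grik2* the effect of genotype differed between E14.5 and E11.5 by 0.80 (SE 0.29, 95% interval 0.19 to 1.42; limma adjusted p = 0.620), and between 24 h and 12 h by -0.72 (SE 0.34; adjusted p = 1). For *Gabrb2* the difference between 24 h and 12 h was -2.58 (SE 1.06, 95% interval -4.83 to -0.33; limma adjusted p = 1). Without adjustment 1, 0 and 2 members had a p under 0.05 in the interactions with age, with 12 h of culture and with culture time, against 7.84, 5.32 and 2.38% of all genes. The 92 further genes of the receptor systems had 0 called in any comparison of genotypes by limma.

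The genes whose levels followed each member most closely over the 24 libraries were mostly neuronal. For *Grin2b* they were *Camk2b*, *Gnao1* and *Chd5* (Pearson r 0.99 each), for *Gabra2* *Rab3a* and *Mapt* (0.99) and *Map9* (0.98), and for *Grin1* *Csmd3* (0.98), *Cdh13* and *Syt1* (0.97). *Grik3* went with *Rufy3*, *Phactr1* and *Celf4* (0.96), *Grin3a* with *Mturn* (0.94), *Gas7* and *A930024E05Rik* (0.93), and *Grik2* with *Ppp2r2c*, *Tmem130* and *Sez6l* (0.91). The closest genes to *Grik5* and *Gabrb2* reached 0.80, *Dusp18* and *Hid1*. The 24 points share embryos, and most of these correlations follow the step from E11.5 to the later samples. Between pairs of members r had a median of 0.74 over all libraries (-0.10 to 0.96, 28 pairs) and of 0.26 after the group means were taken out (-0.32 to 0.68).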

How the data were processed

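RNA from embryonic mouse cortex and from neurospheres was sequenced from the 3′ end (QuantSeq) in 24 libraries. Per the labels and the methods of the study, the authors trimmed the reads of adapters and polyA, mapped them on GRCm38 by TopHat 2.0.10 (Bowtie 1.0.0, SAMtools 0.1.19), counted reads per GENCODE gene by strand with HTSeq 0.6.1 and divided the counts by 1 size factor per library; FastQC 0.11.7 is also named in the submitters' processing notes. The deposited values are this normalised signal, in 1 column per library, and 0 columns were left unmapped. Every value above 0 was a whole multiple of the value of 1 read (100% of values, tolerance 0.001 reads), and whole reads were used for 23 libraries. Those of control D, where 1 read was worth 1.00769, were set aside by choice, although its values were whole multiples too. No count test was run on comparisons that include control D.

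The main test was limma 3.58.1 (R 4.3.3, trend) on log2(value + 1), so that fold changes of low genes are understated, with a minimum mean of 10 in the libraries compared and Benjamini-Hochberg adjustment over all genes tested at 0.05. Age was compared with genotype in the fit, and culture likewise; interactions were fitted in the same libraries. Single genes were also compared by exact two-sided permutation. Alternatives included edgeR 4.0.16 and DESeq2 1.42.0 on whole reads, pseudocounts, filters, rescalings, embryo sex and litter as terms, and leaving out each library. One scaling, by the neuron marker sum, was added after seeing the data and was run on all 11 comparisons. The scripts were tested on simulated data. The cortex and cultures of an embryo are paired by its number in the labels; deviations of 18 such pairs from their group means correlated at -0.11 to 0.24 (median 0.14). The members and gene lists were chosen with earlier results of these data known. Text names the members, *Cep135*, up to 3 listed genes per direction with the smallest p, and the 3 genes most like each member. Some genes that this rule names are not reported here. *Gabre*, *Grin2d*, *Gm42418* and *Ttr* were named after their values were seen. Gene positions are from GENCODE on GRCm38 and promoters from RefSeq. The precision rests on 3 libraries per group.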

Additional observations from a re-analysis of the deposited data

Results flagged for a closer look

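For *Grik2*, every mutant lay below every control in the E11.5 cortex and above every control in the E14.5 cortex, so the effect of genotype took opposite signs at the 2 ages. The interaction with age was 0.80 on the log2 scale (limma adjusted p = 0.620), and did not pass the test over all genes. Age and litter cannot be told apart.

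For *Gabrb2*, every mutant lay above every control at 12 h of culture and below every control at 24 h. The interaction with culture time was -2.58 (limma adjusted p = 1), and did not pass either. The 12 h controls rest on 3, 2 and 9 reads and 1 library, mutant 2, reached 43.1 normalised reads where the other mutants had 10.7 and 11.6. Without mutant 2 at 12 h, *Gabrb2* fell under the minimum mean and gave no value.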

How the results depend on the processing

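Counts of called members kept their value to within 1.5 times in 228 of 231 alternatives. The exceptions were in the comparison of 12 h culture with cortex, where 4 members were called at an adjusted p under 0.1, 1 in controls only and 0 in mutants only, which have fewer samples. Among all genes, 2169 of 13566 were called in controls only and 1219 of 13617 in mutants only. With the embryo as a replicate block, 2 members were called there, 0 between 24 h and 12 h, and 0 in the interactions with culture, so that the block changed no call. *Grik2* was called in culture without mutant 6 at 12 h (-0.41, limma adjusted p = 0.0459) and per neuron marker sum (-0.42, adjusted p = 0.0422).

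Of 1308 alternative values of single genes 64 changed sign; among these the reported value had passed the threshold only for *Grik2* with age. For *Grik2* with age, 21 of 22 alternatives kept the sign and the call. The 1 that did not was the scaling by the neuron marker sum, which moved the median of all genes to -1.75. Causes of the other sign changes were not tested. Per neuron marker sum (added after seeing the data), the values that changed sign were, with age, *Grik2* -0.17 and *Grik5* -1.43; over 12 cortices, *Grik2* 0.0041, *Grik5* 0.0084, *Grin1* 0.16 and *Grin3a* 0.20; at E11.5, *Grik5* 0.13 and *Grin1* 0.16; at E14.5, *Gabra2* 0.047, *Grin2b* 0.056, *Grin1* 0.15 and *Gabrb2* 0.23; at 12 h, *Grin3a* 0.18; and at 24 h, *Grik2* 0.11 and *Grik3* 0.20. With embryo sex as a term they were *Grin1* 0.17 at E11.5, *Grin3a* 0.045 over 12 cortices, *Grik5* -0.13 and *Grin1* -0.60 at 12 h, and *Grik3* 0.0061 at 24 h. With the *Gm42418* share, *Grik2* was 0.069 and *Grik3* 0.43 at 24 h. DESeq2 gave -0.044 and edgeR -0.046 for *Grik5* at 24 h, and 0.13 and 0.12 for *Grin3a* at 12 h. *Grin3a* at 12 h was also 0.013 by median-of-ratios, 0.0085 with a pseudocount of 5 and 0.0029 by quantile normalization, which gave -0.011 for *Grik5* at 24 h and 0.26 for *Gabrb2* between 12 h and cortex. From 12 h to 24 h, controls only gave *Grin1* 0.12 and *Grik2* 0.14, and mutants only *Gabrb2* -1.01 and *Grik3* 0.00037; mutants only gave *Gabrb2* 0.55 between 12 h and cortex.

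Leaving out 1 library at a time gave, at E11.5, *Grin1* -0.45 to 0.33, *Grin2b* -0.74 to 0.067, *Grin3a* -0.19 to 0.59 and *Grik5* -0.19 to 0.12; at E14.5, *Grin1* -0.28 to 0.20 and *Gabrb2* -0.11 to 0.082; at 12 h, *Grin1* -0.29 to 0.39, *Grin3a* -0.39 to 0.38 and *Grik5* -0.17 to 0.23; at 24 h, *Grik3* -0.29 to 0.077 and *Grik5* -0.31 to 0.36; over 12 cortices, *Grin1* -0.27 to 0.082 and *Grin3a* -0.28 to 0.068; and from 12 h to 24 h, *Gabrb2* -0.0089 to 0.47. Low reads limit *Gabrb2* most, with as few as 2 in a library.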
